A study of Mus musculus with 54 samples.

Results

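Klf2, Klf4 and Klf5 encode zinc finger transcription factors of the Krüppel-like family, and 61 of the 113737 merged ATAC-seq peaks of the series were centred no more than 100 kb from a transcription start site (TSS) of 1 of these 3 genes. The members were chosen by position only, with GENCODE M21 TSSs on the mouse build GRCm38, and no peak fell into more than 1 of the 3 windows. There were 22 peaks near Klf2, 11 near Klf4 and 28 near Klf5. ATAC-seq uses the transposase Tn5 to cut and tag DNA that is not packed away, so a peak marks a stretch of accessible chromatin. The list holds a chromosome, a start and an end for each region and nothing else. It has no value for any of the 54 samples, so the effects of auxin, cell cycle phase or time on these loci were not analysed here, there was no replicate spread to compare with, and every value below is a description of 1 list without a test.

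The cells were ZHBTc4 mouse embryonic stem (ES) cells, in which doxycycline (dox) shuts off the Tet-Off controlled Pou5f1 gene that encodes OCT4. They carried mCherry-OCT4-AID, an OCT4 fusion with an auxin-inducible degron expressed from a PGK promoter at a low level, together with the auxin receptor Tir1-V5 and the cell cycle reporter YPet-MD, and they grew in serum, LIF and 2 inhibitors (CHIR99021 and PD184352). All libraries in the list came from cells under dox, for 26 hr in the cell cycle set (22 samples, with 500 nM indole-3-acetic acid (IAA), the auxin, for 2 hr or without it), 31 hr in the washout set (16 samples, where 2.5 hr with or without IAA came before 4.5 hr of washout) and 34 hr in the time course (16 samples, untreated or with IAA from 30 min up to 10 hr). Cells of the first and second sets were sorted into 4 cell cycle phases, and those of the time course were unsorted. The list joins regions called across these sets, so a peak near a Klf gene may come from a single condition.

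The proteins KLF2, KLF4 and KLF5 bind GC-rich and CACCC-type sites and are known as partly redundant supports of self-renewal in mouse ES cells. Klf4 is known as a target of the LIF and STAT3 pathway and as a reprogramming factor, Klf2 as a gene bound by OCT4, and Klf5 as a factor that ES cells and the early trophectoderm both use. In mouse ES cells Klf4 is also known for a group of enhancers that lie far downstream of the gene.

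The sequences below are those on which the description of the promoters and of the distal peaks turns. The promoter windows come from the RefSeq promoter table (GRCm38.p6), which held Klf2 and Klf4 of the 3 genes and not Klf5, and each is shown from its first base to the first GENCODE TSS. Both lay wholly inside the TSS peak of their gene. They are chr8:72318812-72319033 on the plus strand for Klf2 and chr4:55532466-55532725 on the minus strand for Klf4, and capitals mark matches to the KLF motif, which was searched as GGGTGTGGC, GGGTGGGGC, GGGCGTGGC or GGGCGGGGC on both strands.
Klf2 promoter: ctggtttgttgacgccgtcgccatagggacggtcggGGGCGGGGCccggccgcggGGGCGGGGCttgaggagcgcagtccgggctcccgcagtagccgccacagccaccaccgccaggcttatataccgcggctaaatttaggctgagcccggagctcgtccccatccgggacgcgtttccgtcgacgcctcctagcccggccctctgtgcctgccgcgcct
Klf4 promoter: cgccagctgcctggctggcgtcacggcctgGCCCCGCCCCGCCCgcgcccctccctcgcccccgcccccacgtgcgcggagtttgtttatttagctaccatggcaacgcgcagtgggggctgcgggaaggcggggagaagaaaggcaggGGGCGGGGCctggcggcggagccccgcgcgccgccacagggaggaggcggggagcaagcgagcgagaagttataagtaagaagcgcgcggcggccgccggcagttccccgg

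For the distal peaks, stretches of 200 bases are shown from those with an OCT4::SOX2 match and then from those with the most kinds of motif. All are on the plus strand of GRCm38.p6, and capitals mark motif matches on either strand. Near Klf2 they are chr8:72271350-72271549 in Klf2 peak 5, with a KLF and an OCT4::SOX2 match, and chr8:72271662-72271861 in Klf2 peak 6, with a SOX and an ESRRB match. Peaks are numbered within each window from the most upstream to the most downstream in the direction of transcription, and distances are from the peak centre to the nearest TSS of the gene.
Klf2 peak 5: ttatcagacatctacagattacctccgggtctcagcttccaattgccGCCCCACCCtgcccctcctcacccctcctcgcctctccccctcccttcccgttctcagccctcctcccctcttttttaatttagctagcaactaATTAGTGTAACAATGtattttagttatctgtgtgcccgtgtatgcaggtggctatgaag
Klf2 peak 6: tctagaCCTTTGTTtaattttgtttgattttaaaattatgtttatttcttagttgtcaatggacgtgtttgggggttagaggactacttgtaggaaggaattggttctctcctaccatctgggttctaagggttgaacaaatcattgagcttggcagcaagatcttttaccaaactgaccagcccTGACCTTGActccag

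Near Klf4 they are chr4:55480447-55480646 in Klf4 peak 6, with a KLF and a TCF match, chr4:55514885-55515084 in Klf4 peak 5, with 2 KLF matches, and chr4:55464109-55464308 in Klf4 peak 10, with 1 of its 2 SOX matches.
Klf4 peak 6: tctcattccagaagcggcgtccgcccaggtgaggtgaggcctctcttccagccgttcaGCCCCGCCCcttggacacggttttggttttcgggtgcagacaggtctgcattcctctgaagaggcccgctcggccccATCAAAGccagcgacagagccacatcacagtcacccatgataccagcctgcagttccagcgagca
Klf4 peak 5: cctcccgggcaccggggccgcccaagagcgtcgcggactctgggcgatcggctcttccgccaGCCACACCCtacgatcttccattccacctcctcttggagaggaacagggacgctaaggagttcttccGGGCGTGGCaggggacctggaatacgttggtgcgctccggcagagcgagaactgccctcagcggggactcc
Klf4 peak 10: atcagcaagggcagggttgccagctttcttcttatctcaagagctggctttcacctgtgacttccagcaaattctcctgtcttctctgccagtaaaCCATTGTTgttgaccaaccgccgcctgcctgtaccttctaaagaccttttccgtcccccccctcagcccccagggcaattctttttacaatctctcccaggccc

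Near Klf5 they are chr14:99354116-99354315 in Klf5 peak 22, with an OCT4::SOX2 match, chr14:99278830-99279029 in Klf5 peak 10, with a SOX and a CTCF match, and chr14:99340068-99340267 in Klf5 peak 19, with a TCF and an OCT match.
Klf5 peak 22: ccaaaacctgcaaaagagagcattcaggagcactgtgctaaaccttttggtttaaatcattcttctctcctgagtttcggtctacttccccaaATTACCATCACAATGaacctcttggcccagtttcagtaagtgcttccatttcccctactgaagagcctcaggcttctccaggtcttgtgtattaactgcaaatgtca
Klf5 peak 10: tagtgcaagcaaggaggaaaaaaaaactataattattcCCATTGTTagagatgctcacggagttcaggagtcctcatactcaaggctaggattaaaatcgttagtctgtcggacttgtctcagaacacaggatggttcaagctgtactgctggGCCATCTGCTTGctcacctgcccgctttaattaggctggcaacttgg
Klf5 peak 19: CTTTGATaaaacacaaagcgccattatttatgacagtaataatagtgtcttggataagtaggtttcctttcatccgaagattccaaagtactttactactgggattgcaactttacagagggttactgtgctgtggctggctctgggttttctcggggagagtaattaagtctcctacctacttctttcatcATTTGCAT

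Each of the 3 genes had exactly 1 peak with its centre within 1 kb of its own TSSs, here called its TSS peak. Of all 21938 protein-coding genes, 70.8% had such a peak, so a TSS peak by itself did not set these genes apart. The TSS peak of Klf2 was chr8:72318701-72319830, 1130 bp wide, and reached from 332 bp before to 797 bp after the only annotated TSS of the gene. The TSS peak of Klf5 was chr14:99298253-99299541, 1289 bp wide, and held both TSSs of the gene, from 438 bp before to 850 bp after the first. These widths were close to the middle of the range for the 19525 peaks at protein-coding TSSs, whose median was 1068 bp, and 55.3% of those peaks were narrower than the Klf2 peak and 69.1% narrower than the Klf5 peak.

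The TSS peak of Klf4 was of another size. It was chr4:55530042-55533433, 3392 bp wide, with 967 bp before the first TSS and 2424 bp after it, and it held all 3 annotated TSSs. Only 8 of the 19525 peaks at protein-coding TSSs were at least as wide, itself included, and 90% of them were no wider than 1697 bp. It covered 45.5% of the 5324 bp Klf4 gene, against 37.8% of the 2624 bp Klf2 gene and 14.1% of the 16346 bp Klf5 gene covered by all peaks in them. A merged region can join neighbouring peaks of different libraries, and the list does not show whether the 3392 bp were open together in any 1 library.

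All 3 TSS peaks were rich in GC and CpG. The GC content was 69.6% for Klf2, 64.4% for Klf4 and 69.4% for Klf5, against a median of 58.3% over peaks at protein-coding TSSs. The ratio of observed to expected CpG was 0.80 for Klf2, 0.79 for Klf4 and 0.89 for Klf5, against a median of 0.64. The Klf5 peak stood highest by this measure, with a lower ratio in 93.1% of the peaks at protein-coding TSSs, compared with 80.3% for Klf2 and 78.7% for Klf4.

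Each TSS peak also held several matches to the motif of the family that the genes themselves belong to. The Klf2 peak had 2 KLF matches, centred 181 and 162 bp before the TSS. The Klf4 peak had 5, of which 3 lay 225, 220 and 106 bp before the first TSS, 1 lay 6 bp after the third TSS and 1 lay 1135 bp after it. The 2 most upstream Klf4 matches share bases and read as 1 run of capitals in the promoter printed above. The Klf5 peak had 2 matches, 91 bp after the first TSS and 189 bp after the second, and both read GGGCGGGGC, as did both matches of Klf2 and 4 of the 5 of Klf4. The remaining Klf4 match was GGGCGTGGC.

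A KLF match was present in 36.3% of all peaks at protein-coding TSSs, 14.3% held at least 2 and 1.08% held at least 5. Per length, the matches stood at 1.77 per kb in the Klf2 peak, 1.47 per kb in the Klf4 peak and 1.55 per kb in the Klf5 peak, against 0.585 per kb over the summed length of all peaks at protein-coding TSSs. On windows of equal length, 16% of the 32851 RefSeq promoters of 300 bases held a KLF match, 4.42% held at least 2, as in the Klf2 window, and 1.41% held at least 3, as in the Klf4 window. The KLF words are made almost wholly of G and C, and the 3 TSS peaks also lay above the median in GC content, whose part in these counts was not tested. Of the other motifs searched, the Klf4 TSS peak held 2 CTCF matches, and no OCT4::SOX2, OCT, SOX, ESRRB, STAT or TCF match was found in any of the 3 TSS peaks. The shares of these other motifs over all peaks at protein-coding TSSs were not counted, so whether these results are usual is not known.

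**Figure D1:**
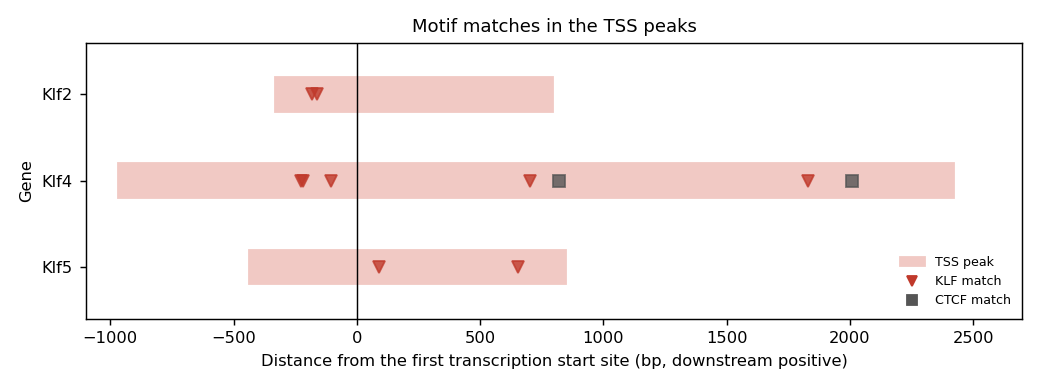
TSS peaks of Klf2, Klf4 and Klf5 drawn as bars against the distance in bp from the first annotated TSS (downstream positive), with triangles at KLF matches and squares at CTCF matches. The Klf4 bar is 3392 bp long, and both Klf2 matches and 3 of the 5 Klf4 matches lie before the TSS, whereas both Klf5 matches lie after it.

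Distal peaks, with their centre over 1 kb from the TSSs of all annotated genes, made up 53 of the 61 peaks. There were 24 near Klf5, 19 near Klf2 and 10 near Klf4. The remaining 5 peaks that were neither distal nor at a TSS of the 3 genes lay at TSSs of neighbours, namely Fam32a and Ap1m1 upstream of Klf2, the small nuclear RNA gene Gm25130 and the processed pseudogenes Gm49218 and Gm49219 downstream of Klf5. Over all protein-coding genes the median was 9 distal peaks within 100 kb, with 75% of genes at or below 13 and 90% at or below 18. Each count covers 100 kb around every annotated TSS of a gene, so genes with TSSs far apart are counted over a longer stretch. Fewer distal peaks than at Klf5 were found for 96.5% of protein-coding genes, fewer than at Klf2 for 90.2% and fewer than at Klf4 for 55.3%. The place of Klf4 turned with the window: within 50 kb it had 3 distal peaks, and only 30.1% of genes had fewer.

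**Figure D2:**
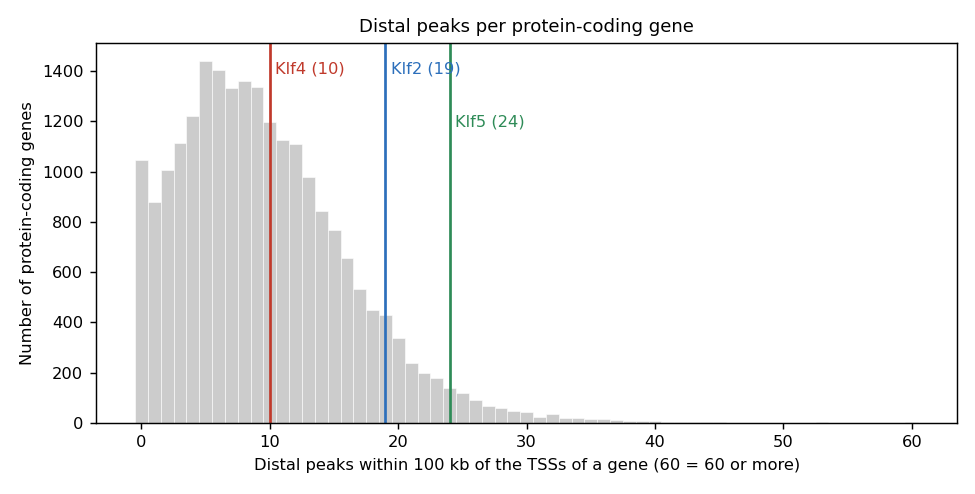
Number of protein-coding genes (y axis) by their number of distal peaks within 100 kb (x axis, genes with 60 or more in the last bar), with lines at the 3 genes. Klf4, with 10, lies next to the median of 9, and Klf2, with 19, and Klf5, with 24, lie in the upper tail.

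The surroundings of the 3 genes held different numbers of peaks. Between 100 kb and 1 Mb from the gene there were 192 distal peaks around Klf5, 73 around Klf2 and 46 around Klf4. Per 100 kb, distal peaks near Klf5 stood at 12.0 against 10.7 in the wider surroundings, so this window was only a little denser than its surroundings on average. Near Klf2 the density was 9.5 per 100 kb against 4.06, and near Klf4 it was 4.98 against 2.56, so both of these windows were denser than the region they lie in. Windows centred on other genes were not compared with their surroundings, so whether this is usual for a gene was not tested. The count of Klf2 includes peaks close to other genes: its window holds TSSs of 4 further protein-coding genes (Fam32a, Ap1m1, Gm10282 and Eps15l1), whereas those of Klf4 and Klf5 hold none.

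**Figure D3:**
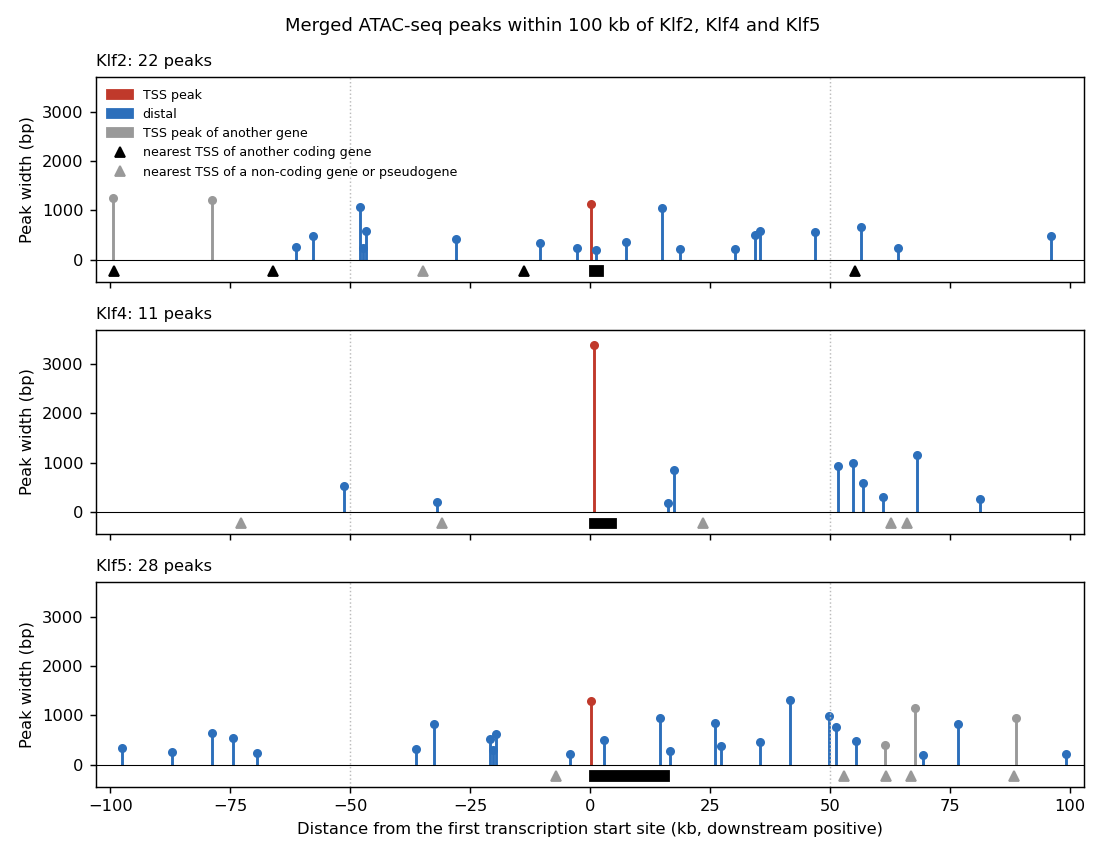
Width in bp (y axis) of every merged peak within 100 kb of Klf2, Klf4 and Klf5 against its distance in kb from the first TSS (x axis, downstream positive), with the gene as a black bar, the nearest TSS of each neighbouring gene as a triangle and dotted lines at 50 kb. The tallest line is the 3392 bp TSS peak of Klf4, and 6 of the 10 distal peaks of Klf4 lie more than 50 kb downstream.

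Near Klf4, 7 of the 10 distal peaks lay 50 to 100 kb from the gene, and 6 of these 7 were downstream. This distance range was not counted for other genes. Over protein-coding genes the median was 9 distal peaks within 100 kb and 4 within 50 kb. A group of 5 of the downstream peaks filled the stretch chr4:55463709-55481180, 17.5 kb long, with gaps of no more than 6.33 kb between neighbours. It began with Klf4 peak 6 (chr4:55480240-55481180, 941 bp) at 51.1 kb from the TSS. Klf4 peak 7 (chr4:55477171-55478159, 989 bp) followed at 54.1 kb and Klf4 peak 8 (chr4:55475363-55475950, 588 bp) at 56.1 kb.

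The group ended with Klf4 peak 9 (chr4:55471195-55471498, 304 bp) at 60.4 kb and Klf4 peak 10 (chr4:55463709-55464869, 1161 bp) at 67.5 kb. Peaks 6, 7 and 10 were wide for distal peaks, since 91.0%, 92.4% and 96.1% of all distal peaks of the list were narrower than these 3. Peak 10 lay in an intron of the lincRNA gene Gm12510, 1525 bp from its TSS, and the other 4 were intergenic. The sixth downstream peak, Klf4 peak 11 (chr4:55450982-55451242, 261 bp), stood apart at 80.7 kb, in an intron of Gm12510. The only peak of this distance range upstream was Klf4 peak 1 (chr4:55583527-55584050, 524 bp) at 51.3 kb, in an intron of the lincRNA gene Gm12511.

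Within 50 kb of Klf4 there were 3 distal peaks, close to the median of 4 over protein-coding genes, and their median width was 210 bp. No distal peak lay within 10 kb of its TSSs. A pair of neighbouring peaks lay downstream, Klf4 peak 4 (chr4:55516140-55516330, 191 bp) at 15.5 kb and Klf4 peak 5 (chr4:55514551-55515400, 850 bp) at 16.8 kb, with 0.739 kb between them. Klf4 peak 2 (chr4:55564242-55564451, 210 bp) lay 31.9 kb upstream in an intron of Gm12511, and only 1082 bp from the TSS of that gene. The longest stretch of the window without any peak was the 48.4 kb between peak 1 and the upstream limit, followed by the 33.4 kb between peaks 5 and 6 and the 30.8 kb between the TSS peak and peak 2. No peak lay between 80.7 kb and the limit of the window, and the nearest peak outside was at 119 kb.

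Klf4 was the protein-coding gene with the nearest TSS for all 10 of its distal peaks, although a TSS of a non-coding gene or pseudogene (Gm12507, Gm12510, Gm12511 or Gm22150) was nearer in each case. Among its distal peaks, peak 5 had the highest GC content (59.6%) and an observed to expected CpG ratio of 0.67, against a median of 0.21 over all distal peaks. It also held the 2 KLF matches printed above, GGGTGTGGC and GGGCGTGGC, both within 42 bp of its centre.

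Near Klf2, the 19 distal peaks lay on both sides, 8 upstream and 11 downstream, and 14 of them were within 50 kb. Closest to the gene were Klf2 peak 12 (chr8:72320118-72320312, 195 bp), 1182 bp after the TSS in a coding exon of Klf2, and Klf2 peak 10 (chr8:72316145-72316380, 236 bp), 2770 bp before it. Peak 12 was separated from the TSS peak by 0.287 kb, and its observed to expected CpG ratio of 0.83 was the highest among the 53 distal peaks. Klf2 peak 13 (chr8:72326421-72326781, 361 bp) followed 7.57 kb downstream.

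Further downstream of Klf2 were Klf2 peak 14 (chr8:72333582-72334632, 1051 bp) at 15.1 kb and Klf2 peak 15 (chr8:72337649-72337870, 222 bp) at 18.7 kb, both intergenic and both with a KLF match GGGTGTGGC. The next 7 peaks, Klf2 peaks 16 to 22 at 30.1 to 96.1 kb, all had their centre in introns of Eps15l1, a gene for an endocytic adaptor protein that is transcribed towards Klf2. They were 209 to 667 bp wide, and the nearest coding TSS was that of Eps15l1 for all 7.

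Upstream of Klf2 the widest distal peak of this window, Klf2 peak 5 (chr8:72270558-72271630, 1073 bp), lay 47.9 kb from the TSS. It was followed after only 11 bp by Klf2 peak 6 (chr8:72271642-72271876, 235 bp) and after a further 189 bp by Klf2 peak 7 (chr8:72272066-72272641, 576 bp), so that these 3 regions form nearly 1 stretch of intergenic accessible chromatin. Klf2 peak 3 (61.3 kb) and Klf2 peak 4 (57.7 kb), each with a CTCF match, lay on their far side. Klf2 peak 8 (28.0 kb) and Klf2 peak 9 (10.4 kb) lay between them and the gene and held none of the motifs searched.

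For only 5 of the 19 distal peaks near Klf2 was Klf2 the nearest protein-coding gene, whereas 7 were nearest to Eps15l1, 5 to Ap1m1, a subunit of a clathrin adaptor complex, and 2 to Gm10282. The 3 adjoining peaks 5, 6 and 7 were among those nearest to Ap1m1. Counted within 50 kb, Klf2 had 14 distal peaks, and 95.3% of protein-coding genes had fewer.

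Near Klf5, the 24 distal peaks lay 11 upstream and 13 downstream, with 14 of them within 50 kb. Klf5 peak 13 (chr14:99301414-99301912, 499 bp) had its centre in a coding exon of Klf5, 2509 bp from the nearest TSS, and Klf5 peak 14 (chr14:99312867-99313818, 952 bp) had its centre in the untranslated part of the last exon, 14.2 kb from it. Klf5 peak 15 (281 bp) lay at 16.2 kb, just past the end of the gene, and Klf5 peak 11 (209 bp) 4.10 kb upstream of the gene.

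The largest group of distal peaks around any of the 3 genes began inside Klf5 and ran downstream. With gaps of up to 10 kb, Klf5 peaks 14 to 22 formed 1 run of 9 peaks over chr14:99312867-99354444, 41.6 kb long, of which 6439 bp lay in peaks. Its widest member, Klf5 peak 19 (chr14:99339684-99340989, 1306 bp) at 41.2 kb, was the widest distal peak of the 3 windows, and 97.7% of all distal peaks of the list were narrower. Klf5 peak 20 (994 bp) at 49.3 kb, Klf5 peak 16 (835 bp) at 25.6 kb and Klf5 peak 21 (765 bp) at 50.8 kb were also wide, and 52.7% of the sequence of peak 21 was repeat-masked. Klf5 peaks 17, 18 and 22 were 376, 458 and 472 bp wide. Beyond the run lay Klf5 peak 25 (188 bp) at 68.9 kb, Klf5 peak 26 (816 bp) at 76.2 kb and Klf5 peak 28 (206 bp) at 98.6 kb.

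Upstream of Klf5, 3 peaks stood within 1.75 kb of each other at about 20 kb from the TSS. These were Klf5 peak 8 (512 bp) at 20.8 kb, Klf5 peak 9 (287 bp) at 20.2 kb and Klf5 peak 10 (chr14:99278744-99279367, 624 bp) at 19.6 kb, with 0.272 and 0.059 kb between them. Klf5 peak 7 (825 bp) at 32.5 kb and Klf5 peak 6 (320 bp) at 36.3 kb followed. The 5 most distant, Klf5 peaks 1 to 5 at 69.4 to 97.6 kb, had their centre in introns of Pibf1, whose TSS was the nearest coding TSS for these 5. Klf5 was the nearest protein-coding gene for the other 19.

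The study measured Klf5 transcripts by RT-qPCR, and the positions of its primers can be set against the peaks. The primers are shown because 1 of them falls into an accessible region of the gene body.
Klf5 pre-mRNA F: ttggcccctgtactcctgt
Klf5 pre-mRNA R: tatcggaactggagggagct
Klf5 mRNA F: ctggcgattcacaacccaaa
Klf5 mRNA R: cccgtatgagtcctcaggtg

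The pre-mRNA pair matched chr14:99301278-99301296 and chr14:99301415-99301434, with the forward primer in intronic sequence (0 of its 19 bases in an exon) and the reverse primer in an exon, and the reverse primer lay inside Klf5 peak 13. The mRNA pair matched chr14:99302125-99302144 and chr14:99303459-99303478, each within an exon and outside all peaks.

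By gaps of up to 10 kb, the distal peaks of the 3 windows fell into 8 groups of at least 3, of which 4 were at Klf2, 3 at Klf5 and 1 at Klf4. How often such groups occur near other genes was not counted. The group at Klf4 was the distant downstream one. One group of 6 peaks at Klf2, over 29.5 kb, ran across the gene, and the upstream one with peaks 3 to 7 held 5 peaks over 15.1 kb.

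In width, the distal peaks of the 3 genes overlapped widely. The median was 426 bp near Klf2 (range 195 to 1073), 556 bp near Klf4 (191 to 1161) and 485.5 bp near Klf5 (188 to 1306), against 380 bp over all 89794 distal peaks. The intervals of the 3 medians at 95% confidence, 235 to 576, 210 to 989 and 287 to 765 bp, overlapped each other and all held the median of the list. These intervals take peaks near the same gene as independent, which they are not. Their overlap therefore does not show whether widths differed between the genes or from the list. Median GC content was 51.1% near Klf2, 51.4% near Klf4 and 46.3% near Klf5, against 47.7% over all distal peaks. At their centre 34 of the 53 distal peaks were intergenic, 16 were intronic and 3 lay in exons of Klf2 or Klf5. The same split was not counted over all distal peaks, so whether it is usual is not known.

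Motifs of factors that act in ES cells were then searched in the 53 distal peaks on both strands. They were the OCT4::SOX2 composite (CATTGTT directly followed by ATGCAAAT, with up to 3 mismatches in 15 bases), OCT (ATGCAAAT), SOX (CCATTGTC, CCATTGTT, CCTTTGTC or CCTTTGTT), KLF (as above), ESRRB (TCAAGGTCA), STAT (TTCCNGGAA), TCF (CTTTGAT) and CTCF (a consensus of 12 bases with up to 1 mismatch). The OCT motif is the second part of the composite, and the first part of the composite shares letters with the SOX motif. At least 1 match was found in 28 of the 53 peaks, or 52.8%, and in 43.4% of all distal peaks. Intervals on shares are Wilson intervals at 95% confidence and cover counting error only, and peaks of 1 locus are not independent.

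OCT4, the factor that the experiment removes, is known to bind the OCT4::SOX2 composite together with SOX2. The composite was found in 2 of the 53 distal peaks, 3.77% (1.04 to 12.8), against 2.36% of all distal peaks. One was Klf2 peak 5, where CATTGTTACACTAAT lay on the minus strand 404 bp from the peak centre. The other was Klf5 peak 22, where CATTGTGATGGTAAT lay on the minus strand 7 bp from the centre. Both carried all 3 mismatches allowed, and no distal peak near Klf4 held a match. In Klf2 peak 5 all 3 mismatches fell in the OCT part of the composite, and in Klf5 peak 22 they fell in both parts. The octamer OCT motif was found in Klf4 peak 2 and Klf5 peak 19 (3.77%), against 3.05% of all distal peaks.

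The SOX motif was found in 6 peaks, 11.3% (5.29 to 22.6), against 12.8%. They were Klf2 peaks 6, 10 and 20, Klf4 peak 10, which held 2 matches, and Klf5 peaks 8 and 10. ESRRB, an orphan nuclear receptor of the same network, had exact matches in Klf2 peaks 6 and 16 and in no distal peak near Klf4 or Klf5, 3.77% against 3.11% of all distal peaks. In Klf2 peak 16 the match lay 6 bp from the centre of the 209 bp peak. The STAT motif was found in 0 of the 53 peaks, which allows a share of up to 5.66% by the limit of 3 counts in 53 (the Wilson interval reaches 6.76%), against 2.1% of all distal peaks, so that a lower share was not detectable with this number of peaks.

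KLF and TCF matches were each found in 8 of the 53 peaks, 15.1% (7.85 to 27.1), against 8.9% of all distal peaks for KLF and 8.55% for TCF, so both intervals still held the share of the list. KLF matches were in Klf2 peaks 5, 14, 15 and 18, Klf4 peaks 5 and 6 and Klf5 peaks 7 and 26. TCF matches, the site of the WNT pathway that CHIR99021 activates, were in Klf2 peak 17, Klf4 peaks 1, 6 and 8 and Klf5 peaks 3, 9, 16 and 19. CTCF matches were in 7 peaks, 13.2% (6.55 to 24.8), against 16.1%, and 2 of them, in Klf2 peak 3 and Klf5 peak 6, were exact.

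Wider peaks have more room for a match, and the peaks near the 3 genes had a higher median width than the list. In the central 200 bp of the 50 peaks at least 200 bp wide, a KLF match was found in 4 (8%, 3.15 to 18.8), against 4.39% of the 84964 distal peaks of that width. A TCF match was found in 1 (2%), against 3.72%, so the order seen in whole peaks turned for TCF. A SOX match was found in 2 (4%) against 6.10%, and a CTCF match in 3 (6%) against 9.25%. OCT and ESRRB matches were each found in 2 (4%, 1.10 to 13.5), against 1.43% and 1.46%, an OCT4::SOX2 match in 1 (2%, 0.354 to 10.5) against 1.05%, and a STAT match in 0 against 0.894%. For each of the 8 motifs the Wilson interval held the share of the list.

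**Figure D4:**
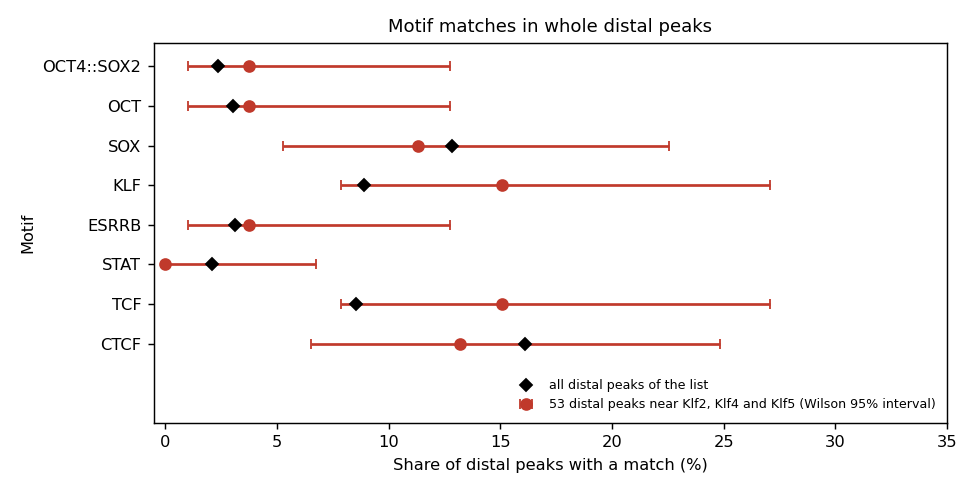
Share in percent (x axis) of distal peaks with a match to each of 8 motifs (y axis), as red points with Wilson 95% intervals for the 53 distal peaks near Klf2, Klf4 and Klf5 and black diamonds for all 89794 distal peaks. Every interval holds the share of the whole list, including those of KLF and TCF, at 15.1% near the 3 genes.

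Of the 53 distal peaks, 6 (11.3%) held more than 1 kind of motif, against 11.2% of all distal peaks. Klf4 peak 6, the first of the distant downstream group, held 3 kinds, with KLF, TCF and CTCF matches. The others, each with 2 kinds, were Klf2 peaks 5 and 6, which lie 11 bp apart and together held OCT4::SOX2, KLF, SOX and ESRRB matches, and Klf5 peaks 10, 19 and 22. In the distant group of Klf4, peak 7 held a CTCF match, peak 8 a TCF match, peak 10 the 2 SOX matches and peak 9 none.

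The wider family gives a frame for these counts. Of Klf1 to Klf18 and Sp1 to Sp9, 26 genes were annotated as protein-coding, and 20 of the 23 besides Klf2, Klf4 and Klf5 had a peak within 1 kb of their own TSSs. The 3 without one were Klf1, the erythroid factor, Klf17 and Sp7, the osteoblast factor. The median of the 23 was 14 distal peaks within 100 kb, with a range of 1 to 70. Klf5, with 24, was passed by Klf12 with 70, which also lies on chromosome 14, and by Sp3 with 26. The length searched was not made equal between genes, and it is longer for genes with TSSs far apart. Klf9 had 23, Sp8 had 22 and Klf16 had 20, all above the 19 of Klf2. Klf4, with 10, was at or below 19 of the 23.

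**Figure D5:**
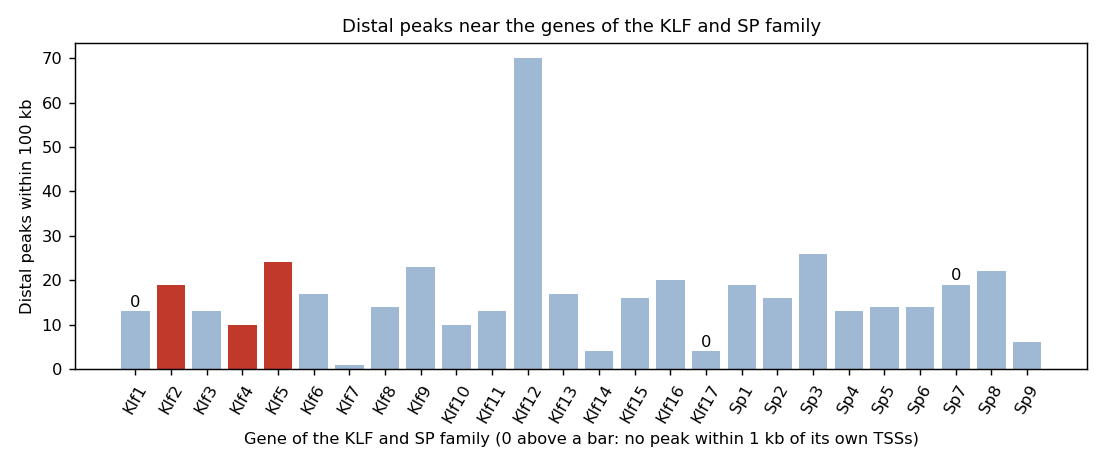
Number of distal peaks within 100 kb (y axis) of each KLF and SP family gene (x axis), with Klf2, Klf4 and Klf5 in red and a 0 above genes without a peak at their own TSSs. Klf12 stands highest with 70, and Klf4, with 10, lies below the family median of 14 for the other genes. The length searched is longer for genes with TSSs far apart.

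At the limit of 100 kb, the farthest peak inside it was at 99.3 kb for Klf2, 80.7 kb for Klf4 and 98.6 kb for Klf5, and the nearest outside was at 102, 119 and 104 kb.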

How the data were processed

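The authors aligned the paired-end ATAC-seq reads to GRCm38 (mm10) with STAR 2.6.1c, removed duplicates with Picard, discarded reads outside the autosomes, X and Y, ran MACS2 2.1.1.20160309 on paired-end fragments and used BEDTools to join the regions found in the OCT4-AID experiments under dox. The deposited values are region starts and ends in bp, without a count, signal, score or p-value. Whether peaks were called per library or on pooled replicates is not given in the sources used here, and the depth is unknown. The methods describe the removal of regions over 5 kb, of those also found in input samples and of blacklisted ones. The list still holds 11 regions over 5 kb, none near the 3 genes, and whether the input and blacklist filters were applied to it was not checked.

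Positions were set 1-based and compared with GENCODE M21 on GRCm38.p6. A peak was assigned by its centre, as a TSS peak within 1 kb of a TSS of the gene and as distal when over 1 kb from the TSSs of all genes. Motifs were matched as consensus words on both strands, and the matching was tested on simulated sequences. No sample column was left out (0). No test was run, because 1 list has no replicates and peaks are not replicates. The genes, gene lists and motifs were chosen with earlier results of these data known. Distal sequences were taken from peaks with an OCT4::SOX2 match, then from those with most kinds of motif and at least 2 matches, at most 3 per gene. Other KLF and SP genes were named where they had at least 10 distal peaks, at most 5, and genes named for having no TSS peak were chosen after their values were seen. The software was pysam 0.24.0, pandas 2.3.3, numpy 2.4.6, scipy 1.17.1 and matplotlib 3.10.9 under Python 3.11.15.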

Additional observations from a re-analysis of the deposited data

How the results depend on the processing

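No paired analysis was possible because the list has no values per sample. Of 71 alternatives for 25 results, 44 left the value within 1.5 times the reported one, or within its 95% interval for percentiles and medians, and 27 moved it. Within 50 kb, Klf4 kept 4 peaks of which 3 were distal, and Klf5 kept 15 of which 14 were distal. The median width of the distal peaks near Klf4 was then 210 bp, at the lower end of its interval. With TSS peaks counted up to 2500 bp, Klf2 had 2. The share of protein-coding genes with fewer distal peaks was, among genes with a peak at their own TSS, 87.5% for Klf2, 46.6% for Klf4 and 95.4% for Klf5. Within 50 kb it was 95.3% for Klf2, 30.1% for Klf4 and 95.3% for Klf5. For peaks over 2500 bp from all TSSs it was 91.5% for Klf2 and 47.4% for Klf4. With gaps of 20 kb the distal peaks formed 4 groups. With 1 mismatch allowed, matches were found in 21 distal peaks for OCT (39.6%, against 33.7% of all distal peaks), 44 for SOX (83.0% against 76.7%), 24 for KLF (45.3% against 42.6%), 15 for ESRRB (28.3% against 20.6%), 16 for STAT (30.2% against 27.1%) and 42 for TCF (79.2% against 73.7%). With 2 mismatches OCT4::SOX2 was found in 0, against 0.263% of all distal peaks, and with 0 mismatches CTCF in 2 (3.77% against 4.53%). In the central 200 bp the numbers were 1 for OCT4::SOX2, 2 for SOX, 4 for KLF, 1 for TCF and 3 for CTCF. Narrower windows hold fewer peaks and looser words match more sequence by construction, and the cause of the other moves was not tested. The number and widths of merged regions depend on a depth that these positions do not show.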
